A study of Mus musculus with 8 samples.

Results

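Chemokines and their receptors were examined in livers of mice that carried extra human AGXT during diet-induced steatohepatitis. The members were the protein-coding genes whose symbols name a CC, CXC, CX3C or XC chemokine, a receptor of such a chemokine or an atypical chemokine receptor. This rule found 60 of the 52636 genes in the count tables, of which 37 encode ligands and 23 encode receptors. Wild-type male C57BL/6J mice were injected at 7 weeks of age with AAV8-TBG-GFP (4 mice) or AAV8-TBG-AGXT (4 mice). AAV8 is a viral vector with a tropism for liver, and TBG is a promoter that is active in hepatocytes. Both groups were fed the same diet high in fat, fructose and cholesterol (MASH diet) from 8 weeks of age for 24 weeks, and no mouse on another diet was part of the comparison. Whole liver RNA of each mouse gave 1 library, so the transgene was directed to hepatocytes whereas the RNA came from all cells of the tissue. AGXT encodes alanine-glyoxylate aminotransferase, which detoxifies glyoxylate and thereby limits oxalate formation. The comparison addressed the expression of inflammatory genes when AGXT was overexpressed in the steatotic liver.

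Chemokines are small secreted proteins that bind to the matrix of a tissue and guide leukocytes along their gradients. They act on G-protein-coupled receptors of leukocytes, several ligands often share 1 receptor, and atypical receptors remove ligands without classical signalling. In steatohepatitis, the CCR2 ligands are known for recruiting monocytes to the liver, the CXCR2 ligands for neutrophils and the CXCR3 ligands for T cells.

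The libraries held 17095433 to 28780140 read pairs on genes. AAV8-AGXT mouse 308 had the smallest share of read pairs on genes, 56.3%, and it was the lowest of the 8 mice for 19 of the 35 members that could be tested. Hepatocyte markers were abundant in all mice, with a sum of 7 markers between 43923 and 53097 counts-per-million (CPM) in AAV8-GFP mice and between 53861 and 75538 CPM in AAV8-AGXT mice. The human transgene has no entry among the mouse genes. Counts on the mouse gene Agxt had a mean level of 163.8 ± 15.8 CPM under AAV8-GFP and of 305.2 ± 98.3 CPM under AAV8-AGXT (SD, n = 4 each; 1.86-fold, adjusted p = 0.0489, edgeR). Reads of the human transgene that aligned to mouse Agxt cannot be told apart from endogenous ones in these counts. CPM values were scaled by the TMM method, and the per-mouse values below are listed in the order of mouse 303, 311, 314 and 315 for AAV8-GFP, then of mouse 308, 309, 316 and 319 for AAV8-AGXT.

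Most members that could be tested had lower estimates in AAV8-AGXT mice. The calls that passed the threshold (adjusted p under 0.05, edgeR's quasi-likelihood test over 15248 genes) were for ligands alone, with no receptor among them. The ligands Ccl4, Ccl7, Cxcl2, Cxcl14 and Cxcl16 were lower, by 1.98-fold to 3.47-fold, and the B cell attractant Cxcl13 was higher. The 5 lower calls were 5 of 35 tested members, where 1.90% of all tested genes were called lower, and the single higher call stood beside 2.45% of all tested genes. The estimate was below 0 for 30 of the 35 members, against 47.7% of all tested genes. The median log2 fold change was -0.94 over the tested members, -1.004 over the ligands and -0.80 over the receptors, against 0.02 over all tested genes. Without overlap between the groups, 11 tested members were lower (7.63% of all tested genes) and 2 were higher (8.93% of all tested genes). At an unadjusted p under 0.05 stood 21 of the 35 members, against 26.2% of all tested genes. In bulk liver RNA, fewer cells of a type and less RNA per cell cannot be told apart.

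**Figure D1:**
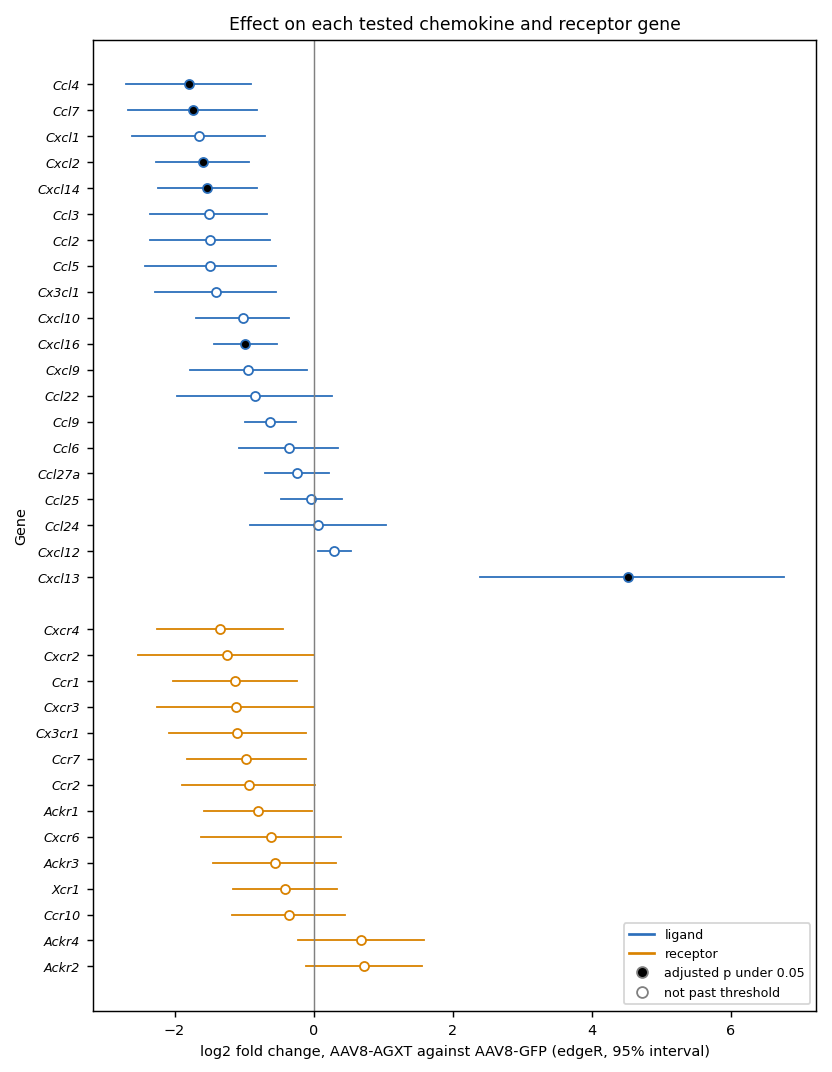
Log2 fold change of 34 of the 35 tested members (AAV8-AGXT against AAV8-GFP, edgeR, n = 4 mice per group) with its 95% interval; ligands are blue, receptors orange, and filled points have an adjusted p under 0.05. All 5 lower calls and the call of Cxcl13 are ligands, and the intervals of the receptors reach close to or across 0 in most cases.

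The low-count filter shaped which members could be tested. Of the 35, 22 reached its level of 0.476 CPM, taken without TMM scaling, in every mouse of both groups. Another 10, Ccl4, Ccl7 and Cxcl2 among them, reached it in every AAV8-GFP mouse only, Cxcl13 in every AAV8-AGXT mouse only, and Ccr10 and Cxcr2 did so in neither group. A member that passed through the group in which it was high was bound to differ to some degree, so the counts above describe the members and carry no support of their own. Whether a member passed the threshold also depended on single mice. Without AAV8-GFP mouse 311 or 314 or AAV8-AGXT mouse 319, edgeR called 0 members, and these fits called 0, 4 and 2 of all genes lower. At an unadjusted p under 0.05 were 16 of 35, 18 of 37 and 17 of 35 tested members, beside 2663, 3325 and 3332 of all genes. Over the 8 fits that left out 1 mouse, Cxcl14 was called in 4, Cxcl2, Cxcl16 and Cxcl13 in 3 each, Ccl4 in 2 and Ccl7 in 0. In these fits the log2 fold change was between -2.16 and -1.60 for Ccl4, -1.94 and -1.51 for Ccl7, and -1.73 and -1.44 for Cxcl2. It was between -1.71 and -1.32 for Cxcl14, -1.09 and -0.85 for Cxcl16, and 2.90 and 4.87 for Cxcl13. Without AAV8-AGXT mouse 308, Cxcl14 was the only lower call and Cxcl13 the only higher call, and the median of the members was -0.73. The Wald test of DESeq2 called 13 members lower (6.93% of all tested genes) and 2 higher (7.08% of all tested genes), including all 5 lower calls of edgeR. Its other lower calls were Ccl2, Ccl3, Ccl5, Ccl9, Cx3cl1, Cxcl1, Cxcl10 and Cxcr4 (adjusted p between 0.00157 and 0.0139, DESeq2). Its higher calls were Cxcl12 and Cxcl13.

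The CCR2 ligands Ccl2 and Ccl7 lie next to each other on chromosome 11 (GRCm38, Ccl2 at chr11:82035571-82037453 and Ccl7 at chr11:82045712-82047525, both on the + strand). Ccl7 encodes MCP-3, which attracts monocytes, and was at 0.703, 1.16, 1.52 and 1.85 CPM in AAV8-GFP and at 0.207, 0.541, 0.514 and 0.283 CPM in AAV8-AGXT mice. It was 3.32-fold lower (log2 fold change -1.73, standard error 0.42, adjusted p = 0.0485, edgeR), and every AAV8-AGXT mouse lay below every AAV8-GFP mouse. This call was lost with any 1 mouse left out (adjusted p between 0.0510 and 0.146, edgeR) and with limma-voom (adjusted p = 0.0616). Ccl2, the major monocyte attractant MCP-1, was at 5.39, 8.60, 8.21 and 8.203 CPM in AAV8-GFP and at 0.967, 4.87, 2.93 and 2.03 CPM in AAV8-AGXT mice. Its groups did not overlap either, with a log2 fold change of -1.49 (standard error 0.39) and an adjusted p of 0.0601 by edgeR, which misses the threshold, and of 0.00319 by DESeq2. Their receptor Ccr2, carried by inflammatory monocytes, was at 9.41, 15.5, 21.96 and 10.2 CPM in AAV8-GFP and at 2.002, 8.77, 10.7 and 8.16 CPM in AAV8-AGXT mice. The Ccr2 values overlapped, since mouse 316 lay above mice 303 and 315 (log2 fold change -0.94, standard error 0.43, adjusted p = 0.201, edgeR). The third murine CCR2 ligand, Ccl12, was too scarce to be tested, with 3, 28, 9 and 6 read pairs in AAV8-GFP and 0, 1, 1 and 3 in AAV8-AGXT mice.

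Among the inflammatory CC ligands, Ccl3, Ccl4, Ccl5, Ccl6 and Ccl9 lie within 1 stretch of chromosome 11, and their differences were of unequal size. Ccl4 (chr11:83662584-83664683), which encodes the leukocyte attractant MIP-1β, was at 1.17, 2.69, 1.85 and 2.51 CPM in AAV8-GFP and at 0.276, 0.601, 0.976 and 0.472 CPM in AAV8-AGXT mice. It was 3.47-fold lower (log2 fold change -1.79, standard error 0.40, adjusted p = 0.0427, edgeR), the largest decrease among the calls, and the groups did not overlap. Ccl3, which encodes MIP-1α, was at 1.13, 3.40, 1.71 and 1.94 CPM against 0.621, 0.661, 0.976 and 0.613 CPM, also without overlap (log2 fold change -1.51, adjusted p = 0.0523, edgeR). Ccl5, the T cell and monocyte attractant RANTES, was at 6.44, 12.7, 10.2 and 15.1 CPM against 1.17, 3.73, 6.57 and 4.25 CPM. Mouse 316 of the AAV8-AGXT group lay just above mouse 303 of the AAV8-GFP group for Ccl5 (log2 fold change -1.49, adjusted p = 0.0720, edgeR).

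Ccl9 and Ccl6, CCR1 ligands that are made by myeloid cells of the mouse, were the most abundant CC ligands per transcript length. Ccl9 had 16.8 ± 3.79 normalised fragments per kilobase of transcript (FPKM; SD, n = 4) in AAV8-GFP and 10.9 ± 0.945 FPKM (SD, n = 4) in AAV8-AGXT mice. In each mouse it was at 34.3, 58.6, 53.1 and 58.6 CPM against 29.6, 32.6, 36.5 and 34.0 CPM, and mouse 303 lay within the range of the AAV8-AGXT mice (log2 fold change -0.62, adjusted p = 0.0622, edgeR). Ccl6 was at 19.3, 35.8, 28.5 and 30.4 CPM against 11.4, 16.3, 24.3 and 36.4 CPM, so that the highest of all 8 values belonged to an AAV8-AGXT mouse, 319. Its log2 fold change was -0.36, with a 95% interval from -1.08 to 0.35. The eosinophil attractant Ccl24 had a log2 fold change of 0.06 with a 95% interval from -0.92 to 1.04, and the sign of this estimate changed in other fits. Ccl11 (eotaxin-1) gave 13, 6, 6 and 6 read pairs in AAV8-GFP mice and 0 in all 4 AAV8-AGXT mice. Set against a floor of 3 read pairs over the AAV8-AGXT group, it was at least 7.23-fold lower, for counting error only.

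The receptor Ccr1, which binds Ccl3, Ccl5, Ccl6 and Ccl9 and is carried by monocytes and macrophages, was at 1.76, 1.93, 3.28 and 1.37 CPM against 0.414, 1.202, 1.39 and 0.755 CPM (log2 fold change -1.13, adjusted p = 0.115, edgeR). The Ccr1 groups overlapped by a narrow margin, at mice 315 and 316. Ccr3, the eotaxin receptor, was not tested, with at most 5 read pairs per mouse.

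Cxcl1 and Cxcl2 encode ligands of CXCR2, which guides neutrophils, and are neighbours on chromosome 5 (GRCm38). The promoters of both are shown because their estimates were close to each other, and those of Cxcl14 and Cxcl13 because these ligands were called in opposite directions. Each run gives the 250 bases before the start site in the RefSeq entry for GRCm38.p6, 5′ to 3′ on the strand of the gene. Capitals mark matches on either strand to GGNNTTTCC (NF-κB core), GAAANNGAA (interferon element) or TGANTCA (AP-1 site), which can overlap each other.
Cxcl1 (chr5:90890995-90891244, + strand): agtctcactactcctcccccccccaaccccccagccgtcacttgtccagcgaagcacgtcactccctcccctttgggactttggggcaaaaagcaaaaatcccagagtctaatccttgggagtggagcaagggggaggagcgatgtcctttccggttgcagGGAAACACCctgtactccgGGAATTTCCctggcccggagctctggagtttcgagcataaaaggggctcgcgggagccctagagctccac
Cxcl2 (chr5:90903649-90903898, + strand): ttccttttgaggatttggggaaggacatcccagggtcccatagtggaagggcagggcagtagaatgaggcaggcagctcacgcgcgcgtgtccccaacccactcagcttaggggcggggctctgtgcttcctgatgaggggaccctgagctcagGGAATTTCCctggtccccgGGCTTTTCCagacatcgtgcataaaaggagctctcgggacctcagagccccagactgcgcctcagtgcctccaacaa
Cxcl14 (chr13:56296552-56296801, minus strand): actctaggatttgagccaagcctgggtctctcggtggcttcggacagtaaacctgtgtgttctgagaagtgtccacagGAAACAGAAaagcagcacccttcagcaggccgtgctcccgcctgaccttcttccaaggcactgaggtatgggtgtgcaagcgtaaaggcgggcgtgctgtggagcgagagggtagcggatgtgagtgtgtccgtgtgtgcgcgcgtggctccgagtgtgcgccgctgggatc
Cxcl13 (chr5:95956689-95956938, + strand): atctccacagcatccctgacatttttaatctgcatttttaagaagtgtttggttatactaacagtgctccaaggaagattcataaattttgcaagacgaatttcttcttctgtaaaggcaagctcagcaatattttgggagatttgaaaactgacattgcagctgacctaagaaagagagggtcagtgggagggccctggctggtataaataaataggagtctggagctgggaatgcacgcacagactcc

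The Cxcl1 and Cxcl2 promoters each held a pair of matches to the NF-κB core, which began 89 and 70 bases before the start site in Cxcl1 and 96 and 77 bases before it in Cxcl2. The Cxcl14 run held 1 match to the interferon element, and the Cxcl13 run held none of the 3 motifs. The promoter table held 46 of the 60 members, and those it lacked included Ccl2, Ccl4, Ccl5, Ccl7, Ccl11, Ccl24, Ccl26, Ccr7, Ccr10, Cxcl5, Cxcl16, Cxcl17 and Cxcr5. The NF-κB core was matched in 9 of these 46 members (19.6%), against 5.62% of the 27025 genes in the table, and 5 of the 9 were the CXC ligands Cxcl1, Cxcl2, Cxcl3, Cxcl9 and Cxcl10. The interferon element was matched in 8 of 46 (17.4%, against 8.18% of all genes) and the AP-1 site in 6 of 46 (13.0%, against 7.82% of all genes). These matches describe letters in the window and were not tested for binding.

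Cxcl2 (chr5:90903871-90905938) was at 1.17, 2.02, 1.38 and 2.21 CPM in AAV8-GFP and at 0.621, 0.601, 0.514 and 0.519 CPM in AAV8-AGXT mice. It was 3.01-fold lower (log2 fold change -1.59, standard error 0.30, adjusted p = 0.0335, edgeR), and the 4 AAV8-AGXT mice lay close together, all below the AAV8-GFP mice. Cxcl1 (chr5:90891241-90893115) was at 16.1, 33.7, 75.3 and 36.7 CPM against 9.73, 20.6, 9.40 and 11.8 CPM. Its log2 fold change of -1.65 (standard error 0.43) was of similar size, but the AAV8-GFP mice spread widely and mouse 309 lay above mouse 303 (adjusted p = 0.0597, edgeR). Per length, Cxcl1 was the second most abundant member in AAV8-GFP mice at 21.6 ± 13.3 FPKM (SD, n = 4), whereas Cxcl2 was at 0.820 ± 0.240 FPKM (SD, n = 4). Their receptor Cxcr2 was scarce, between 0.397 and 1.29 CPM in AAV8-GFP and between 0.120 and 0.613 CPM in AAV8-AGXT mice (log2 fold change -1.25, adjusted p = 0.191, edgeR). Of the 6 neutrophil markers, 3 were tested and edgeR called 0. Csf3r alone was at an unadjusted p under 0.05 (log2 fold change -0.89, groups without overlap), against 26.2% of all tested genes. The sum of the 6 was between 20.8 and 32.7 CPM in AAV8-GFP and between 6.90 and 22.1 CPM in AAV8-AGXT mice. Among these markers Ly6g was at 0 in all mice but 319, which had 3 read pairs, and the part of neutrophils in these results was not tested. The other neutrophil ligands were not tested, namely Cxcl5 (45 read pairs over the AAV8-GFP mice and 17 over the AAV8-AGXT mice), Cxcl3 (7 and 0) and Cxcl15 (0 in all mice).

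**Figure D2:**
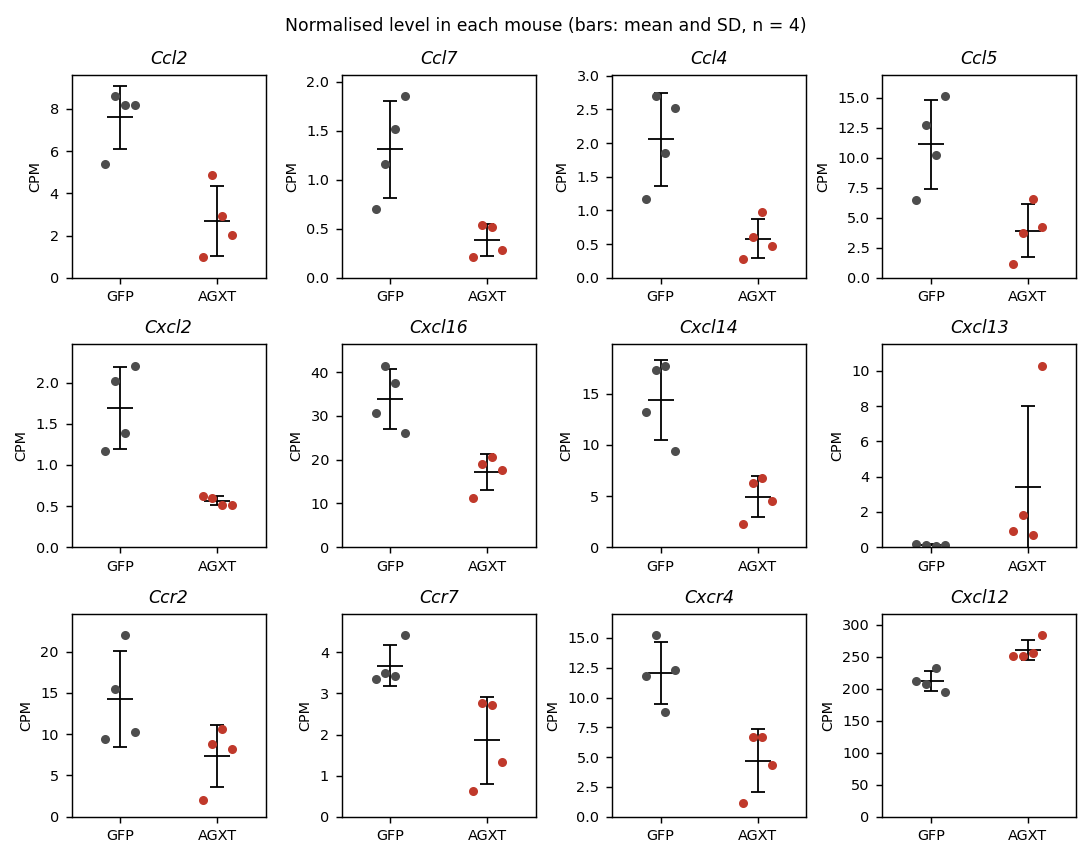
Normalised level (CPM, linear axes from 0) of 12 members in each mouse, AAV8-GFP in grey and AAV8-AGXT in red, with mean and SD (n = 4 per group; the lower bar of Cxcl13 is cut at 0). The groups do not overlap for Ccl2, Ccl7, Ccl4, Cxcl2, Cxcl16, Cxcl14, Cxcl13, Ccr7, Cxcr4 and Cxcl12, and overlap for Ccl5 and Ccr2.

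Cxcl9 and Cxcl10 are interferon-inducible ligands of CXCR3 on activated T cells. Cxcl10 was at 8.20, 11.02, 11.8 and 16.9 CPM in AAV8-GFP and at 2.90, 7.21, 7.19 and 6.13 CPM in AAV8-AGXT mice, without overlap, although mice 303 and 309 differed by little. The estimate was -1.02 on the log2 scale (standard error 0.30, adjusted p = 0.0752, edgeR), and its exons overlap Art3 on the other strand, so its counts are uncertain if the counting did not use strand. Cxcl9 was at 15.0, 19.4, 24.7 and 29.3 CPM against 3.94, 18.4, 13.0 and 10.6 CPM, and mouse 309 lay within the AAV8-GFP range (log2 fold change -0.94, adjusted p = 0.152, edgeR). Cxcr3 was at 0.859, 1.71, 1.25 and 1.19 CPM against 0.345, 0.3005, 1.34 and 0.283 CPM. For Cxcr3, 3 AAV8-AGXT mice were below all AAV8-GFP mice and mouse 316 was above 3 of them (log2 fold change -1.12, adjusted p = 0.191, edgeR). Without mouse 316 the log2 fold change of Cxcr3 was -2.01 and its adjusted p 0.0394 by edgeR.

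The transmembrane ligands Cxcl16 and Cx3cl1 can act as adhesion molecules or be shed. Cxcl16, a ligand of CXCR6 on natural killer T cells and resident T cells, was at 30.7, 41.4, 37.5 and 26.1 CPM in AAV8-GFP and at 11.3, 19.05, 20.5 and 17.6 CPM in AAV8-AGXT mice. It was 1.98-fold lower (log2 fold change -0.99, standard error 0.20, adjusted p = 0.0366, edgeR) with no overlap between the groups. Its exons overlap Zmynd15 on the other strand, with the same uncertainty as for Cxcl10. Cxcr6 was at 0.781, 1.99, 1.75 and 1.01 CPM against 1.10, 0.841, 1.39 and 0.330 CPM, with intermingled groups (log2 fold change -0.61, 95% interval -1.62 to 0.39). Cx3cl1 (fractalkine) was at 8.86, 11.6, 13.6 and 5.12 CPM against 1.59, 5.65, 4.57 and 2.88 CPM, where mouse 309 exceeded mouse 315 (log2 fold change -1.41, adjusted p = 0.0697, edgeR). Its receptor Cx3cr1, found on monocytes and macrophages, was at 14.8, 20.1, 23.6 and 10.9 CPM against 2.62, 9.55, 14.8 and 5.24 CPM. Mouse 316 was again within the AAV8-GFP range for Cx3cr1 (log2 fold change -1.10, adjusted p = 0.153, edgeR), and the exons of Cx3cr1 overlap Gm33858 on the other strand.

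Among homeostatic and lymphoid ligands, 1 fell and 1 rose. Cxcl14, a ligand made by epithelial and stromal cells (chr13:56288643-56296551, minus strand), was at 13.2, 17.3, 17.7 and 9.35 CPM in AAV8-GFP and at 2.28, 6.31, 6.73 and 4.48 CPM in AAV8-AGXT mice. It fell 2.89-fold (log2 fold change -1.53, standard error 0.32, adjusted p = 0.0375, edgeR), every AAV8-AGXT mouse being below every AAV8-GFP mouse. With 1 mouse left out, its adjusted p by edgeR was between 0.0345 and 0.138. Cxcl13 (chr5:95956951-95961068), which draws B cells through CXCR5, was at 0.195, 0.153, 0.0923 and 0.132 CPM in AAV8-GFP and at 0.897, 1.80, 0.668 and 10.3 CPM in AAV8-AGXT mice. The AAV8-GFP values rested on 2 to 5 read pairs per mouse. All AAV8-AGXT mice were above all AAV8-GFP mice, and mouse 319 was far above the other 3. The difference came to 4.52 on the log2 scale (standard error 0.98, adjusted p = 0.0388, edgeR), and without mouse 319 it was 2.90 with an adjusted p of 0.0728. Its receptor Cxcr5 was not tested, with 37, 19, 7 and 5 read pairs in AAV8-GFP and 5, 1, 9 and 3 in AAV8-AGXT mice.

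Markers of resident macrophages stood beside the Cxcl13 values. The scavenger receptor Cd163 was at 1.44, 0.888, 0.646 and 1.41 CPM in AAV8-GFP and at 11.3, 14.8, 4.57 and 34.0 CPM in AAV8-AGXT mice, with its highest value also in mouse 319. Marco was at 156.2 CPM in mouse 319 and at no more than 12.4 CPM in any other mouse. Over the 7 Kupffer cell markers, 1 was called higher (Cd163, where 2.45% of all tested genes were), and 6 estimates were above 0. The groups did not overlap for 2 of the 7 only, Cd163 and Marco, both higher (8.93% of all tested genes, higher). With overlap, the log2 fold change was 0.04 for Vsig4, -0.02 for Cd5l, 0.29 for Folr2, 0.45 for Clec4f and 2.49 for Timd4. The summed level was between 232.3 and 365.0 CPM in AAV8-GFP mice. It was 191.9, 268.1 and 320.3 CPM in AAV8-AGXT mice 308, 309 and 316, and 776.6 CPM in mouse 319 alone. The 5 B cell markers had no call by edgeR and 0 at an unadjusted p under 0.05 (26.2% of all tested genes), with sums of 18.6 to 33.8 CPM and 15.6 to 29.6 CPM. The part of these cells in the Cxcl13 result was not tested.

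Cxcl12 (SDF-1), which retains leukocytes through CXCR4, was the most abundant member per length, at 25.9 ± 1.94 FPKM (SD, n = 4) in AAV8-GFP and 31.9 ± 1.87 FPKM (SD, n = 4) in AAV8-AGXT mice. In each mouse it was at 212.0, 207.6, 233.0 and 195.0 CPM against 251.5, 251.8, 255.4 and 283.3 CPM, with every AAV8-AGXT mouse above every AAV8-GFP mouse. The log2 fold change of 0.30 (95% interval 0.06 to 0.54) missed the threshold by edgeR (adjusted p = 0.120) and passed by DESeq2 (adjusted p = 0.0299). Scaling by total counts, which moved the median of all genes to -0.22, gave Cxcl12 a log2 fold change of 0.06. Cxcr4 was at 11.8, 15.2, 8.81 and 12.3 CPM in AAV8-GFP and at 1.17, 6.67, 6.68 and 4.34 CPM in AAV8-AGXT mice. It did not overlap and had the lowest estimate of the receptors (log2 fold change -1.34, standard error 0.41, adjusted p = 0.0814 by edgeR and 0.0139 by DESeq2).

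**Figure D3:**
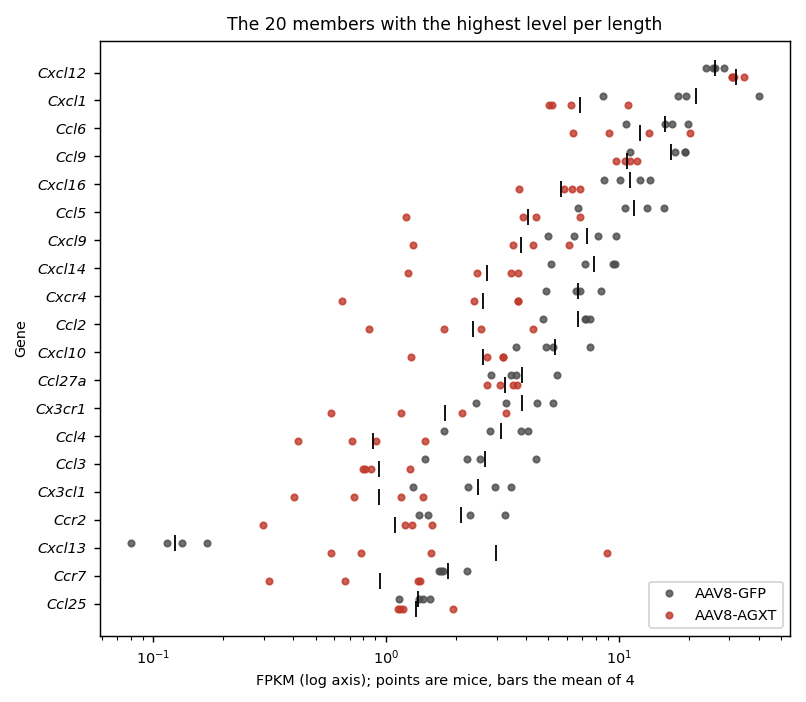
Level per transcript length (FPKM, log axis) of the 20 most abundant members; points are mice, grey for AAV8-GFP and red for AAV8-AGXT, and bars are means of 4. Cxcl12 leads in both groups, the AAV8-GFP points of Cxcl13 lie far to the left of its AAV8-AGXT points, and those of Ccl25 intermingle.

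Among the remaining receptors, Ccr7, which brings dendritic and T cells to lymphoid tissue, was at 3.36, 3.49, 3.41 and 4.41 CPM in AAV8-GFP and at 0.621, 2.76, 2.72 and 1.32 CPM in AAV8-AGXT mice. The Ccr7 groups did not overlap (log2 fold change -0.97, adjusted p = 0.147, edgeR). Its ligands Ccl19, Ccl21a and Ccl21b were at or near 0, with 6 read pairs of Ccl19 in mouse 319 as the only ones. Xcr1, a receptor of cross-presenting dendritic cells, had a log2 fold change of -0.41 (95% interval -1.17 to 0.33), and Ccr10 one of -0.36 (95% interval -1.17 to 0.45). No receptor was called by edgeR, and 6 of the 15 tested had an unadjusted p under 0.05, against 26.2% of all tested genes. DESeq2 called Cxcr4 alone, which is 1 of 15, where it called 6.93% of all tested genes lower.

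The 4 atypical receptors did not share a direction. Ackr1, a chemokine-binding receptor of venular endothelium and red cells, was at 1.64, 1.84, 1.25 and 1.23 CPM in AAV8-GFP and at 1.10, 1.08, 0.924 and 0.378 CPM in AAV8-AGXT mice, without overlap (log2 fold change -0.80, adjusted p = 0.177, edgeR). Its exons overlap Cadm3 on the same strand. Ackr3, which scavenges CXCL12, had a log2 fold change of -0.55 (95% interval -1.44 to 0.33). The scavenger of inflammatory CC chemokines, Ackr2, was at 4.92, 2.54, 1.98 and 1.81 CPM against 7.46, 4.39, 3.70 and 3.21 CPM, with overlap at mouse 303 only (log2 fold change 0.72, 95% interval -0.11 to 1.55, adjusted p = 0.250, edgeR). Ackr4, the scavenger of CCL19, CCL21 and CCL25, had a log2 fold change of 0.68 (95% interval -0.22 to 1.58), and its exons overlap Acad11 on the other strand. Both of these estimates remained above 0 in every alternative fit.

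Of the 3 tested ligands of lymphocyte and barrier receptors, edgeR called 0 and 0 were at an unadjusted p under 0.05, against 26.2% of all tested genes. Ccl22, a CCR4 ligand of dendritic cells and macrophages, had a log2 fold change of -0.85 (95% interval -1.96 to 0.27), with 0.207 CPM in mouse 308 and between 1.44 and 3.60 CPM in the other mice. Ccl25 was at 10.7, 10.3, 8.49 and 11.5 CPM in AAV8-GFP and at 14.5, 8.41, 8.58 and 8.78 CPM in AAV8-AGXT mice (log2 fold change -0.03, 95% interval -0.47 to 0.41). Ccl27a had a log2 fold change of -0.24 (95% interval -0.70 to 0.22). The exons of Ccl25 and Ccl27a overlap other genes on the opposite strand.

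The 25 members that were not tested had at most 86 read pairs over all mice, and 4 of them had 0 (Ccl26, Ccl21a, Ccl21b and Cxcl15). Ccl8 gave 4, 15, 6 and 15 read pairs in AAV8-GFP and 0, 0, 2 and 6 in AAV8-AGXT mice. Xcl1, made by T and natural killer cells, gave 9, 19, 9 and 2 against 2, 4, 4 and 4. Ccl17 gave between 3 and 10 against between 1 and 3, and Ccr9 gave between 7 and 13 against between 7 and 12. The remaining ones, Ccl1, Ccl20, Ccl27b, Ccl28, Cxcl17, Ccr1l1, Ccr4, Ccr6, Ccr8 and Cxcr1, had at most 12 read pairs in any mouse.

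**Figure D4:**
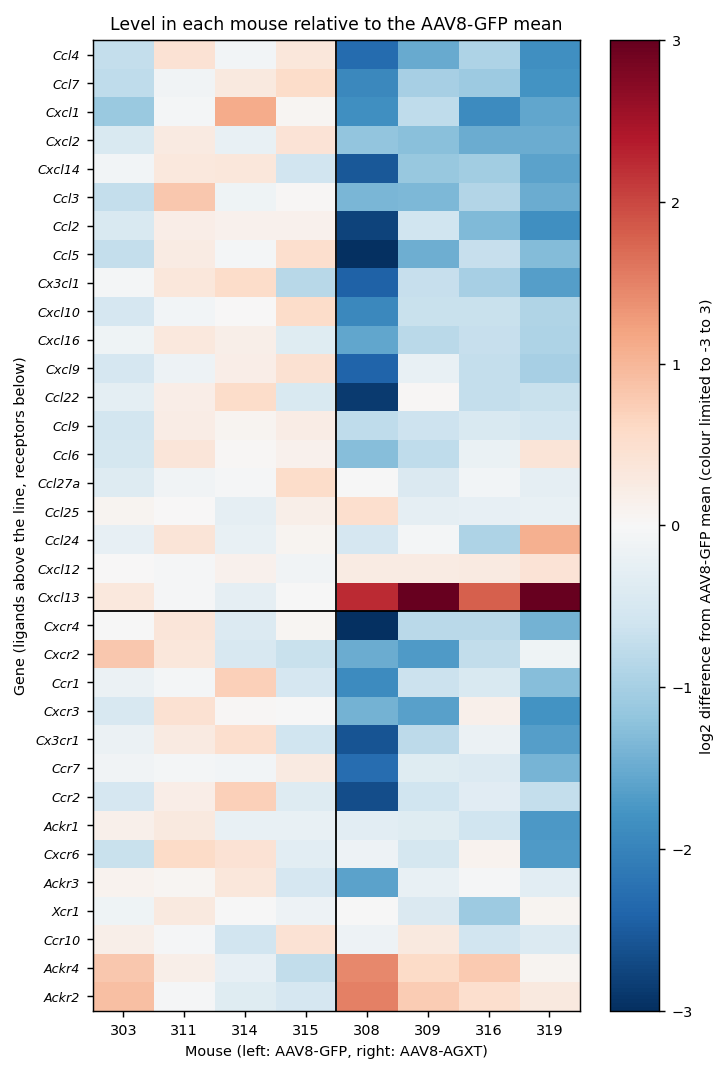
Log2 difference of 34 of the 35 tested members from the AAV8-GFP mean in each of the 8 mice (blue lower, red higher, colour limited to 3 in either direction), ligands above the line and receptors below. Mouse 308 is the darkest blue column, and its median difference over all 35 was -1.56 against -0.59 to -0.92 in the other AAV8-AGXT mice.

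The mice of the AAV8-AGXT group differed in how far their members lay below the AAV8-GFP mean. The median difference over the 35 tested members, as log2 CPM, was -1.56 in mouse 308, -0.61 in mouse 309, -0.59 in mouse 316 and -0.92 in mouse 319. In the AAV8-GFP mice the same median was between -0.17 and 0.21. Between 28 and 30 of the 35 members were below the AAV8-GFP mean in each AAV8-AGXT mouse. Mouse 308 held the highest value of 3 members, and mouse 319 of 4.

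Whether ligands and receptors differed unequally was asked within each mouse for 13 known ligand and receptor pairs, a test chosen after the data were seen. The log2 ratio of Cxcl12 to Cxcr4 was 4.15 ± 0.41 in AAV8-GFP and 6.01 ± 1.11 in AAV8-AGXT mice (SD, n = 4 each), a difference of 1.86 (two-sided exact permutation test, p = 0.0286, adjusted over 13 pairs 0.371). This p is the smallest that 4 mice against 4 allow, it was reached by 1 pair, and no pair passed after adjustment. Every AAV8-AGXT mouse lay above every AAV8-GFP mouse for Cxcl12 and below every one for Cxcr4. The ratio was therefore bound to separate the groups, so this p was fixed in advance and carries no support of its own. For Cx3cl1 and Cx3cr1 the difference of the log2 ratio was -0.13 (exact p = 0.8), and for Ccl2 and Ccr2 it was -0.55 (exact p = 0.171).

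Genes that act with the chemokine system were described by 4 lists, in which edgeR called 0 genes, against a background of 1.90% of all tested genes called lower, 2.45% called higher and 26.2% at an unadjusted p under 0.05. Of 31 tested genes of receptor signalling, such as the G-protein subunit Gnai2 and the phosphoinositide kinase subunit Pik3cd, edgeR called 0, with 11 at an unadjusted p under 0.05. Their median log2 fold change was -0.51, and 27 of the 31 estimates were below 0. Among 12 tested genes of leukocyte arrest and adhesion edgeR called 0, with 3 at an unadjusted p under 0.05 and a median of -0.45. Chemokine and chemokine-like genes under other names, including Pf4, Mif and the MIF receptor Cd74, had 0 calls of 6 by edgeR, 2 at an unadjusted p under 0.05 and a median of -0.56. Proteases that trim chemokines had 0 calls of 5 by edgeR, 3 at an unadjusted p under 0.05 and a median of 0.03.

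Cell type markers were measured beside the members, against a background of 1.90% of all tested genes called lower, 2.45% called higher and 26.2% at an unadjusted p under 0.05. Of 13 monocyte and macrophage markers, 12 estimates were below 0 and 2 were called lower (Cd63 and Cd9, both also expressed in other cells). The groups did not overlap for 5 of the 13 (7.63% of all tested genes, lower). They overlapped for the others, with log2 fold changes of 0.13 for Adgre1, -0.27 for Csf1r, -0.53 for Ly6c2 and -0.87 for Lyz2. For Gpnmb, Chil3, Trem2 and Spp1, also with overlap, the log2 fold changes were -1.03, -1.04, -1.42 and -1.62. At an unadjusted p under 0.05 by edgeR stood 7 of the 13. The summed level of the 13 was between 834.9 and 1588 CPM in AAV8-GFP and between 211.0 and 825.9 CPM in AAV8-AGXT mice. Spp1 alone gave 484.0 CPM of the AAV8-GFP mean sum of 1245.5 CPM, so the sum depends heavily on this gene. Of 11 tested T and natural killer cell markers edgeR called 0, with 4 at an unadjusted p under 0.05, and the sums were between 14.5 and 24.7 CPM and between 6.08 and 17.9 CPM. Of 7 dendritic cell markers edgeR called 0 with 1 at an unadjusted p under 0.05. Of 5 cholangiocyte markers edgeR called 0, with 5 at an unadjusted p under 0.05, a median log2 fold change of -1.34 and sums between 224.5 and 673.1 CPM against between 74.1 and 272.5 CPM. Most of this sum was Spp1, with an AAV8-GFP mean of 484.0 CPM and an AAV8-AGXT mean of 157.1 CPM, which is also in the monocyte and macrophage list. Of 6 stellate cell and fibroblast markers 1 was called lower (Acta2), with 3 at an unadjusted p under 0.05 and a median of -0.48. The groups did not overlap for 2 of the 6, Acta2 and Col1a1 (log2 fold change -1.77), against 7.63% of all tested genes, lower. With overlap were Pdgfrb (-0.67), Rgs5 (-0.29), Dcn (-0.15) and Lrat (0.11). Of 7 endothelial markers edgeR called 0 with 0 at an unadjusted p under 0.05 and a median of 0.22. Of 7 hepatocyte markers 1 was called higher (Cps1), 4 were at an unadjusted p under 0.05 and all estimates were above 0. Mouse 308 had the lowest sums of the macrophage and T cell markers and the highest sum of the hepatocyte markers. The hepatocyte sum was mostly Alb and Apoa1, with 29998 and 11425 CPM of the AAV8-GFP mean sum of 48769 CPM. Few platelet (2 of 5), adipocyte (2 of 5), and pancreas and gut markers (3 of 8) could be tested. They had 0 calls by edgeR, with 1, 0 and 2 at an unadjusted p under 0.05. The part of these cell types in the differences of the chemokine genes was not tested.

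**Figure D5:**
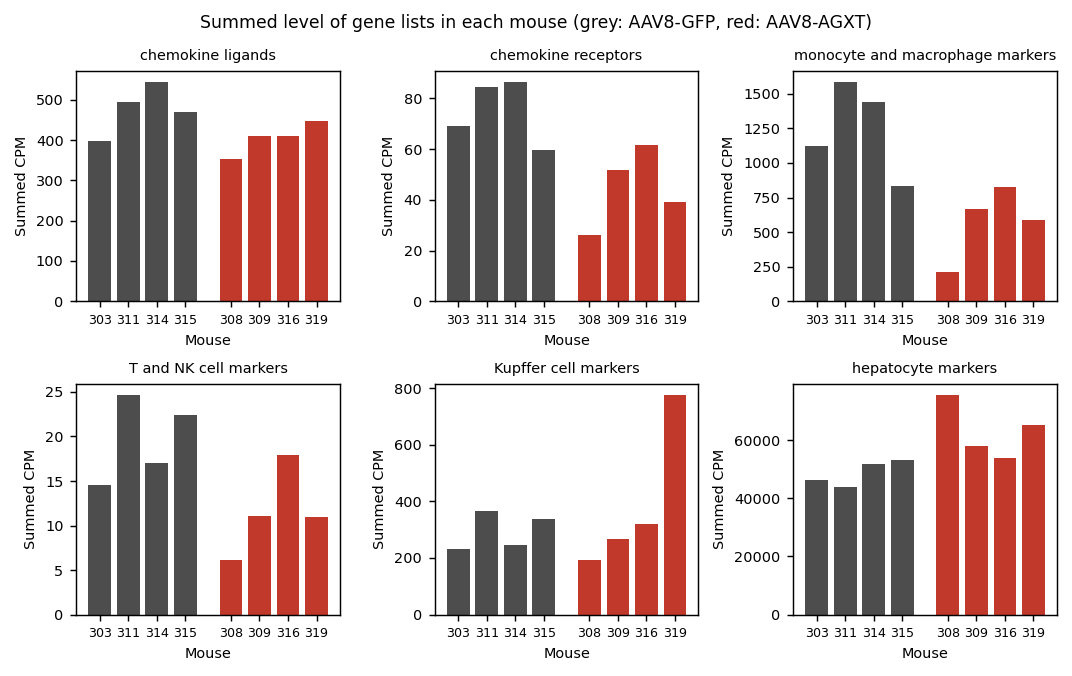
Summed CPM of the 37 ligands, the 23 receptors and 4 lists of cell type markers in each mouse, AAV8-GFP in grey and AAV8-AGXT in red, with bars from 0. Receptors were between 59.7 and 86.6 CPM in AAV8-GFP and between 26.2 and 61.5 CPM in AAV8-AGXT mice, and the ligand sum, in which Cxcl12 weighs most, was between 396.5 and 545.0 CPM against between 354.2 and 447.8 CPM.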

How the data were processed

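The authors made stranded mRNA libraries from liver RNA of 8 mice and read them in pairs. Per the labels and the paper's methods, the authors used FastQC 0.11.8, Trimmomatic 0.35, HISAT2 2.1.0.13 on GRCm38 and HTSeq, and tested with DESeq2. The deposited values are raw counts of read pairs per Ensembl gene. The strand option of the counting is not given in the sources used here, and pairs aligned at several places were not counted, which can lower genes with close paralogs. HTSeq's 5 tallies of unassigned pairs were left out. Read pairs counted on genes were between 56.3% and 69.1% of all tallies. Symbols, positions and exon lengths came from GENCODE M21, which matched 52403 of 52636 genes.

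Counts were analysed in R 4.3.3 with edgeR 4.0.16 (filterByExpr, TMM, quasi-likelihood test, treatment as the only term, Benjamini-Hochberg over 15248 genes), with DESeq2 1.42.0 and limma 3.58.1 as alternatives. Log2 fold changes used a prior count of 0.125, and per-mouse log2 CPM a prior count of 2. FPKM are TMM-scaled CPM per kilobase of exon. The common biological coefficient of variation was 23.3%, and floors on counts cover counting error only. On simulated data for this comparison, 93.9% of 98 genes with a log2 change of 2 and 54.6% of 97 genes with a change of 1 were called. The changed genes were drawn at random from all tested genes, so these rates do not measure how often a change in the members would be called. No pair of libraries from the same group agreed within sampling noise. The labels give no litter, batch or cage, so p-values measure the spread between these mice.

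The members and lists were chosen with earlier results of these data known. Genes given in every mouse were those past the threshold, tested members without overlap, those the study names, the 10 with the highest FPKM and partners of these. Others were added as examples after their values were seen. Of the tested members, 1 is not reported here by name and stayed in the counts, medians and sums.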

Additional observations from a re-analysis of the deposited data

Results flagged for a closer look

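Within groups of 4 mice, the gap between the highest or lowest mouse and its nearest neighbour, as a share of the range of the group, exceeded Dixon's 95% critical value in 7 of 70 groups of member values. Chance gives this in about 1 of 20 groups. The case with the widest consequence was Cxcl13, at 10.3 CPM in AAV8-AGXT mouse 319 and between 0.668 and 1.80 CPM in the other AAV8-AGXT mice. Cxcl12 was also highest in mouse 319, at 283.3 CPM against 251.5 to 255.4 CPM. AAV8-AGXT mouse 316 had 1.34 CPM of Cxcr3 where the other AAV8-AGXT mice had 0.283 to 0.345 CPM, and 0.976 CPM of Ccl3 where they had 0.613 to 0.661 CPM. Ccl25 was at 14.5 CPM in AAV8-AGXT mouse 308 and at 8.41 to 8.78 CPM in the other mice of its group. In the AAV8-GFP group, Ccl2 was at 5.39 CPM in mouse 303 and at 8.203 to 8.60 CPM in the others, and Ccr7 was at 4.41 CPM in mouse 315 and at 3.36 to 3.49 CPM in the others.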

How the results depend on the processing

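The median log2 fold change of the members stayed within 1 SD between mice (0.34) of its value in all alternatives, between -1.15 with total counts and -0.73 without mouse 308. Counts of calls moved more. Against 5 members lower and 1 higher, DESeq2 gave 13 and 2, limma-voom 5 and 0, and voomWithQualityWeights 9 and 0. Total counts gave 9 lower, no filter 14 lower, 10 counts in every mouse 2 and 0, and an adjusted p under 0.1 gave 13 lower. At an unadjusted p under 0.05, limma-voom and voomWithQualityWeights each had 23 members, beside 4018 and 4515 of all genes. With 10 counts in every mouse, 12 of the 20 members left to test were at that level, beside 3458 of all genes. Leaving out 1 mouse gave 0 to 5 members lower and 0 to 1 higher. Against 290 genes lower and 374 higher of all tested, DESeq2 gave 1054 and 1077, voomWithQualityWeights 606 and 804, total counts 857 and 144, and leaving out 1 mouse 0 to 325 lower and 2 to 379 higher. Upper-quartile factors turned the split to 298 lower and 254 higher. Ccl24, 0.06 in the report, was below 0 with limma-voom (-0.14), voomWithQualityWeights (-0.35), upper-quartile factors (-0.0076) and total counts (-0.20), and between -0.58 (without mouse 319) and 0.31 with 1 mouse left out, including -0.023 without mouse 303 and -0.040 without mouse 314. Ccl25 was between -0.27 and 0.041 with 1 mouse left out, including 0.030, 0.020, 0.041 and 0.032 without mice 315, 309, 316 and 319. Over single members, 500 of the alternative values kept direction and side of the threshold, 36 lost a call, 33 gained one and 11 changed sign. The cause of these changes was not tested. No paired analysis was possible because the mouse numbers are not shared between the groups. Depth limited the scarce members, of which 25 with at most 86 read pairs in all were not tested.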
